A study of Arabidopsis thaliana with 12 samples.

Results

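The response of pot1b seedlings of Arabidopsis thaliana to Zeocin was measured as the difference between the 3 libraries of pot1b seedlings given 20 µM Zeocin for 6 h and the 3 libraries of mock-treated pot1b seedlings, which make up 6 of the 12 libraries of the study. The other 6 came from the wild type Col-0 (WT), with 3 mock and 3 Zeocin libraries, and are used here for the spread between replicates and to ask where the response of pot1b differed. All seedlings were 6 days old and grew on MS medium, and total RNA of whole seedlings, depleted of ribosomal RNA, was sequenced. The comparison covered the nuclear genes, of which 32548 were listed, 19394 had enough counts to be tested and 6599 were at 0 in all 6 pot1b libraries. The labels name neither the pot1b allele nor the origin of the replicates, so that a p-value here reflects no more than the scatter among the libraries, which could be technical.

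Zeocin is a drug of the bleomycin type that cuts both strands of DNA. In plants the kinases ATM and ATR pass the signal of such breaks to the transcription factor SOG1, which switches on genes for repair by homologous recombination and for arrest of the cell cycle, with brakes such as the SMR and KRP inhibitors of cyclin-dependent kinases. POT1B belongs to a family of proteins known for their part at chromosome ends.

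Total counts ran from 13766466 to 20313243 in pot1b mock and from 11121224 to 14800807 in pot1b Zeocin, and nuclear genes took 39.65% to 42.58% of them, most of the rest falling on chloroplast genes. The nuclear share was 41.42% ± 1.09 (SD, n = 3) in mock and 40.91% ± 1.41 in Zeocin libraries (exact two-sided permutation test, p = 0.7, where 3 against 3 libraries cannot go below 0.1). Levels below are CPM, all counts of a library scaled to a common total, and are given for replicates 1, 2 and 3 in that order. They are not corrected for gene length, so that they compare samples and not genes. POT1B (AT5G06310) had 29, 14 and 39 counts in the mock libraries and 24, 8 and 56 in the Zeocin libraries of pot1b, or 0.70 to 4.21 CPM, against 2.95 to 5.35 CPM in WT. Replicate 3 of pot1b thus lay within or near the WT range in both treatments and did not check its label, and the text gives, beside the calls it names and the counts of lists and families, where they were lost or shrank without both replicate 3 libraries.

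A gene was called when edgeR's adjusted p was under 0.05. In pot1b 717 nuclear genes were called higher after Zeocin (3.7% of those tested) and 587 lower (3.03%), and without both replicate 3 libraries 446 were called higher and 292 lower. Leaving out 1 library at a time gave 386 lower calls without pot1b Zeocin replicate 1 and 971 without WT Zeocin replicate 1, the lowest and the highest of these counts. The rises were larger than the falls. At least 2-fold changes were called for 275 genes upward (1.42%) and 63 downward (0.325%), and at least 4-fold changes for 115 and 3. The median log2 change was 0.76 among genes called higher, -0.49 among genes called lower and 0.00 over all genes tested. Protein-coding genes made up 700 of the rises and 572 of the falls, and 16 long non-coding RNAs rose and 15 fell of 822 tested.

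**Figure D1:**
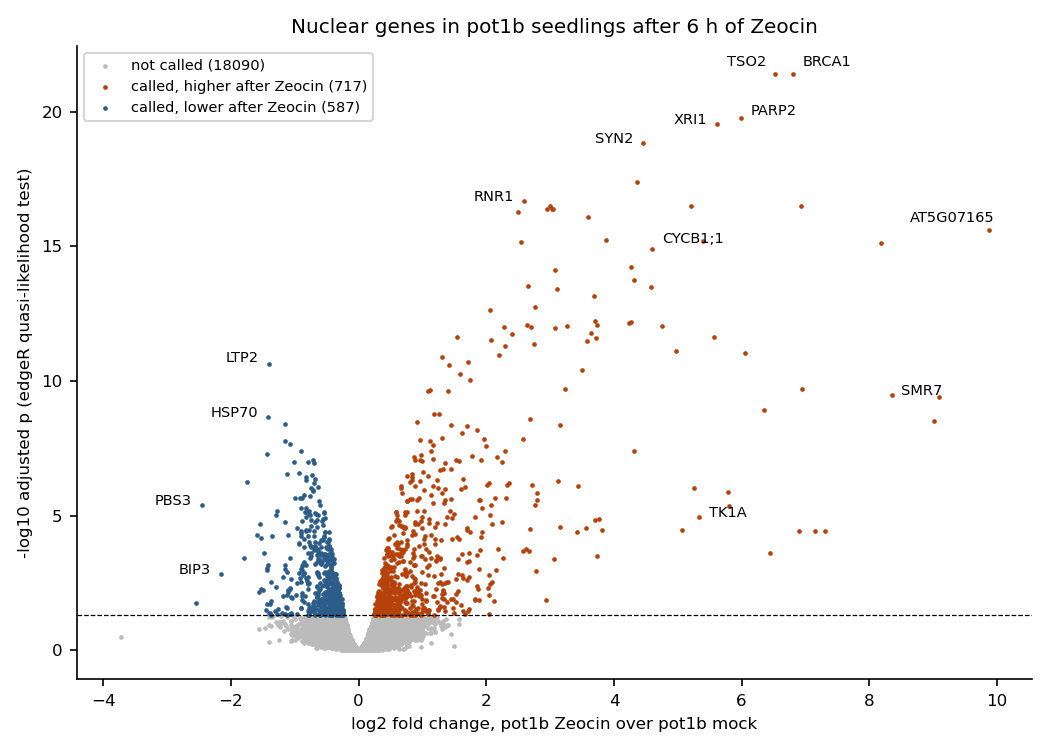
Each point is a nuclear gene, with its log2 fold change in pot1b (Zeocin over mock) on the x axis and -log10 of edgeR's adjusted p on the y axis. The dashed line marks the threshold of 0.05. The 717 red points (higher) reach a log2 change of 9.87, while of the 587 blue points (lower) only 3 lie at or beyond a 4-fold fall.

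Promoters of genes that rose are shown first, because SOG1 is known to bind a palindrome of CTT and AAG set 7 bases apart. The 4 genes printed were chosen for their strong rise and for a match within 120 bases before the start. Capitals mark the match to CTTNNNNNNNAAG, and positions are counted from the annotated transcript start, where -1 is the base before it. Sequences and coordinates are those of RefSeq's TAIR10.1 assembly, 5′ to 3′ on the gene's strand, and PARP2 and COM1 lie on the plus strand and SMR7 and AT2G18193 on the minus strand.
SMR7 (chr3:10231568-10231687, match from -43): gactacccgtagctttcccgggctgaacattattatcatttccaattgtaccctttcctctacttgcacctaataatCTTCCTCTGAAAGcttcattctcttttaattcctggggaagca
COM1 (chr3:19325915-19326034, match from -65): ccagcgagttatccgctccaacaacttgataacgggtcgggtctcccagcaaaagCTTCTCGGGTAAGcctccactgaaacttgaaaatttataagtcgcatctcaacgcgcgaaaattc
PARP2 (chr4:1049646-1049765, match from -96): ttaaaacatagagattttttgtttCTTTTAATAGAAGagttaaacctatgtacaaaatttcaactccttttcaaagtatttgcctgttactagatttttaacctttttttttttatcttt
AT2G18193 (chr2:7919346-7919465, match from -73): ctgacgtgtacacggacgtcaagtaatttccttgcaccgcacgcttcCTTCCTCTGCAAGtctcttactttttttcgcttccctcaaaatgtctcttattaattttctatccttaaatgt

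The palindrome reads the same on both strands, and a match is a description of the letters and not of a bound site. In windows from 250 bases before to 50 after the start it was present in 11.0% of 18335 tested protein-coding genes and in 11.8% of all 27443. It was present in 18.6% of the 700 genes called higher in pot1b (exact 95% binomial interval 15.8 to 21.7), in 24.2% of the 265 that rose at least 2-fold and in 28.4% of the 109 that rose at least 4-fold. Among the 572 genes called lower the share was 10.7% (8.26 to 13.5), and among the 60 that fell at least 2-fold it was 23.3% (13.4 to 36.0), from 14 genes. No match lay in these windows of BRCA1, XRI1 and TK1A, which also rose strongly. A higher share among genes called higher was not particular to this palindrome. The W-box (TTGACC or TTGACT) was present in 39.3% of them (35.6 to 43.0) against 33.0% of tested genes. The heat shock element (GAANNTTC) was present in 15.9% (13.2 to 18.8) against 11.6%. The G-box (CACGTG, 8.86% against 8.9%) and the MSA core (AACGG, 24.0% against 26.2%) were not more frequent. A site of the cell-cycle factor E2F (TTTCCCGC or TTTGGCGC, either strand) was present in 1.25% of tested genes, in 2.29% of those called higher and in 6.42% of those that rose at least 4-fold, which is 7 of 109 (2.62 to 12.8). In the bases before the start alone it was present in 1.43% of genes called higher and in 2.75% of those that rose at least 4-fold, which is 3 of 109. Intervals treat genes as independent and cover counting error only.

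The genes ATM, ATR, SOG1, MRE11 and NBS1, which sense or pass on the break signal, were not called, while other genes of the damage signal rose. ATM (AT3G48190) read 13.2, 13.7 and 11.7 CPM in mock and 13.6, 12.6 and 13.0 CPM in Zeocin libraries (log2 change 0.02, SE 0.11, adjusted p = 0.947), and SOG1 (AT1G25580) read 7.09, 7.57 and 5.42 against 8.04, 7.96 and 6.69 CPM (0.17, SE 0.14, adjusted p = 0.596). Their libraries overlapped between treatments. ATR (0.19), MRE11 (0.29) and NBS1 (-0.07), of the complex that finds broken ends, were not called either.

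Of 13 tested genes of the damage signal 4 rose and 0 fell, with a median log2 change of 0.17. Over all genes tested 3.7% rose and 3.03% fell. For this list and the repair and cell-cycle inhibitor lists below, 0 lower lies near that share. The NAC factor gene ANAC103 (AT5G64060), a relay under SOG1, read 0.394, 0.390 and 0.145 CPM in mock and 8.24, 9.72 and 8.42 CPM in Zeocin libraries. All treated libraries stood far above all mock libraries (4.75, SE 0.24, adjusted p = 9.2e-13). ANAC044, which acts with SOG1 in G2 arrest, rose by 2.68 (SE 0.38), and RAD17, a checkpoint clamp loader, by 3.88 (SE 0.14), although RAD17 overlaps another gene. The kinase gene WEE1, which holds back division, rose by 1.86 (SE 0.40, adjusted p = 0.0039), and that call was lost without both replicate 3 libraries (adjusted p = 0.0877). MYB3R3 and MYB3R5, which repress mitotic genes, were at -0.30 and 0.11 and were not called.

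Homologous recombination had 5 of 17 genes higher and 0 lower (median 0.15). BRCA1 (AT4G21070), which promotes this route, read 0.936, 0.781 and 0.867 CPM in mock and 97.1, 97.0 and 102 CPM after Zeocin (6.81, SE 0.11). COM1 (AT3G52115), which helps to trim broken ends, went from 0.591, 0.468 and 0.289 to 19.7, 19.7 and 20.4 CPM (5.39, SE 0.19). In both genes the treated libraries lay close together, and the groups did not overlap, which was a condition for naming genes by the size of their change.
RAD54, a motor protein of this route, rose by 2.30 (SE 0.20), and AT4G14970, annotated as a Fanconi anemia group D2 protein, by 1.23 (SE 0.21). BARD1, the partner of BRCA1 (0.12), the BRCA2 genes BRCA2A (0.15) and BRCA2B (-0.01), and XRCC2 (0.19) were not called. XRI1, named for its rise after X-rays and known for its part in meiosis, was in none of the lists and read 3.6, 3.28 and 4.77 CPM in mock and 190, 176 and 203 CPM after Zeocin (5.61, SE 0.12, adjusted p = 2.8e-20).

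End joining and base repair had 4 of 12 genes higher and 0 lower (median 0.34). The poly(ADP-ribose) polymerases, which mark breaks, moved most. PARP2 (AT4G02390) read 1.87, 1.64 and 2.1 CPM in mock and 123, 121 and 115 CPM after Zeocin (5.99, SE 0.12, adjusted p = 1.7e-20), and PARP1 (AT2G31320) read 3.00, 2.97 and 3.11 against 35.0, 37.3 and 38.1 CPM (3.6, SE 0.11). Mock libraries of both genes were all low and treated ones all high. The DNA ligase genes LIG1 (0.66, SE 0.11) and LIG4 (0.57, SE 0.13, a gene that overlaps another) rose by less, and the end-binding genes KU70 (0.38) and KU80 (0.04) were not called.

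Cohesin holds sister chromatids together and the SMC5/6 complex acts in repair between them. Of 12 genes tested 4 rose and 0 fell (median 0.24). The cohesin subunit gene SYN2 (AT5G40840) read 2.61, 2.73 and 2.31 CPM in mock and 56.5, 57.5 and 55.3 CPM after Zeocin (4.46, SE 0.10, adjusted p = 1.5e-19), and the cohesin loader gene SCC2 (AT5G15540) read 21.8, 25.1 and 24.2 against 52.6, 50 and 51.6 CPM (1.12, SE 0.08). The groups stood apart in both, while the ring genes SMC1 (0.15) and SMC3 (0.17) were not called. AT1G51130, annotated as the Nse4 component of SMC5/6, rose by 2.29 (SE 0.13), and GMI1, an SMC-hinge gene known from its rise after gamma rays, by 2.50 (SE 0.08), with the caution that GMI1 overlaps another gene.

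Nucleotide supply and the single-strand binding protein RPA had 6 of 13 genes higher and 0 lower, and the highest median of the repair lists (0.41). The thymidine kinase gene TK1A (AT3G07800), which salvages thymidine, read 3.69, 5.54 and 6.07 CPM in mock and 204, 184 and 221 CPM after Zeocin (5.34, SE 0.33, adjusted p = 1.1e-05). RNR1 (AT2G21790), the large subunit of ribonucleotide reductase, read 11.3 CPM in each mock library and 66.0, 68.8 and 70.3 CPM after Zeocin (2.59, SE 0.08). RPA1E (AT4G19130), a large RPA subunit, read 0.493, 0.468 and 0.650 against 12.9, 12.6 and 13.2 CPM (4.58, SE 0.20).
In these genes no treated library came near a mock library. Within the RPA1 family the changes were unequal, with RPA1A at 0.93 (SE 0.13) and RPA1C, which overlaps another gene, at 0.72 (SE 0.12) also higher, and RPA1B (-0.38) and RPA1D (-0.28) not called. TSO2, a small reductase subunit that overlaps another gene, rose by 6.53 (SE 0.11), whereas its relative RNR2A was not called (0.23).

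**Figure D2:**
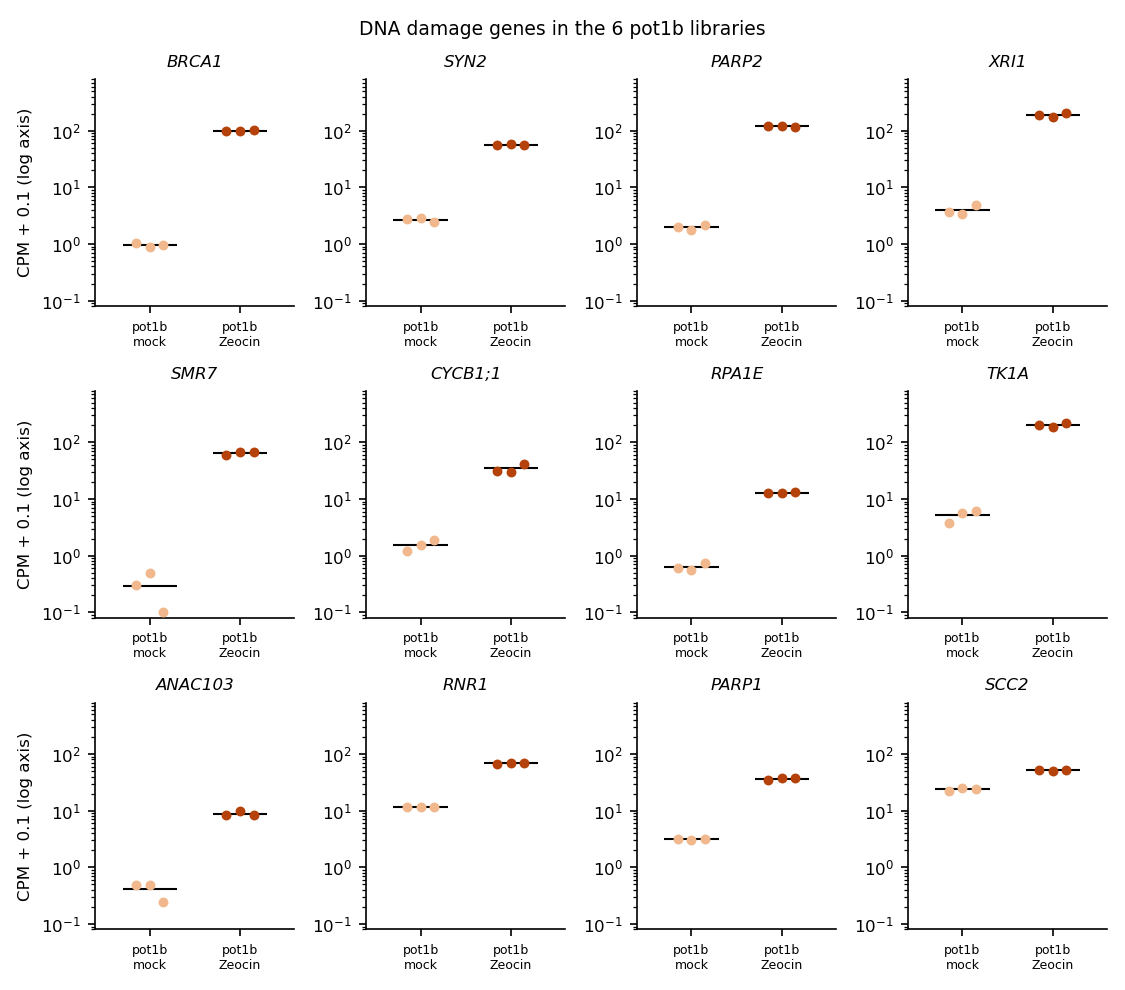
Levels of 12 damage genes in the 3 mock and 3 Zeocin libraries of pot1b are plotted as CPM + 0.1 on a log axis, with a line at each group mean. In every panel all Zeocin points lie above all mock points, from ANAC103 at 8.24 to 9.72 CPM to TK1A at 184 to 221 CPM.

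Among cell-cycle inhibitors 6 of 15 rose and 0 fell, while the median stayed at 0.09. SMR7 (AT3G27630), an inhibitor of cyclin-dependent kinases, read 0.197, 0.390 and 0 CPM in mock and 59.7, 67.1 and 68.5 CPM after Zeocin (8.35, SE 0.30, adjusted p = 3.3e-10). KRP6 (AT3G19150), of another family of such inhibitors, read 1.92, 2.42 and 1.52 against 6.93, 7.44 and 9.09 CPM (log2 change 2, SE 0.18). The groups did not overlap in either. SMR4 rose by 3.77 (SE 0.50), and SMR1 (1.36) and SIM (0.62), both overlapping another gene, rose as well. KRP1 (-0.56) and KRP2 (-0.84) were not called, and the call of SIM was lost without both replicate 3 libraries (adjusted p = 0.147).

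Mitotic genes had 1 member called of 23, with a median of 0.27, where 3.7% of all genes tested were called higher and 3.03% lower. That gene, the B-type cyclin CYCB1;1, read 1.13, 1.41 and 1.81 CPM in mock and 31.4, 30.2 and 42.0 CPM after Zeocin (4.60, SE 0.16, adjusted p = 1.2e-15). Its relatives CYCB1;2 (0.01), CYCB1;3 (0.28) and CYCB1;4 (0.06) were not called. Of 24 DNA replication genes 1 was called, the repressor-type factor E2FC (0.61, adjusted p = 0.0423), which was lost without both replicate 3 libraries (adjusted p = 0.0548). MCM2 (0.04) and MCM5 (0.02), of the replicative helicase, and the sliding clamp gene PCNA1 (0.09) were not called.

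Several of the strongest rises came from genes with next to no counts in mock seedlings. The ratios that follow set summed counts over the library totals, with exact 95% intervals for 1 to 3 mock counts and, for 0 counts, a lower bound against 3 counts over the 3 libraries. These intervals and bounds cover counting error only. The uncharacterized AT5G07165 had 1 mock count and 376, 329 and 354 counts after Zeocin, a ratio of 1300 (232 to 51200). AT4G22960, annotated as FAM63A-like, had 2 mock counts and 210, 157 and 208 counts after Zeocin, a ratio of 352 (96.9 to 2910). SMR5, which overlaps another gene, had 2 mock counts and 242 in all after Zeocin, a ratio of 148 (40.5 to 1230).
AT1G20750, annotated as a RAD3-like helicase, and AT4G25330, annotated with a SAWADEE domain, had 0 mock counts and 165 and 158 after Zeocin, at least 67.3-fold and 64.4-fold higher. The DNA methyltransferase gene DRM1 and the SKP1-type genes SK10 and SK9 were at least 14.7-fold, 17.5-fold and 10.6-fold higher, and these 5 genes were chosen after their values were seen. In all, 15 genes called higher had at most 3 mock counts over the group.

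Of the largest rises among genes on none of the lists, AT2G18193, annotated as a P-loop nucleoside triphosphate hydrolase, read 3.1, 2.89 and 2.75 CPM in mock and 368, 362 and 340 CPM after Zeocin (6.93, SE 0.15, adjusted p = 3.2e-17). AT4G02110, annotated as a transcription coactivator, rose by 5.20 (SE 0.16), and KCS17, for the elongation of very long fatty acids, by 6.06 (SE 0.35) from 4, 1 and 0 counts in the mock libraries. TRFL10 (AT5G03780), a relative of telomere-repeat binding proteins that was chosen after its values were seen, went from 0.936, 1.33 and 0.940 to 35.1, 32.7 and 31.0 CPM (4.97, SE 0.21).

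The largest gains in abundance, by contrast, came partly from genes with small fold changes. The ABC transporter gene PEN3 (AT1G59870), known for defence at the cell surface, read 1050, 1030 and 1030 CPM in mock and 1490, 1440 and 1520 CPM after Zeocin (0.52, SE 0.07, adjusted p = 2.4e-05). The dehydrin gene ERD14 (AT1G76180) read 437, 357 and 411 against 827, 824 and 701 CPM (0.96, SE 0.10), and the calcium-binding protein gene CP1 (AT5G49480) read 39.8, 40.4 and 38.8 against 251, 284 and 220 CPM (2.66, SE 0.11). Each stood higher in all treated libraries than in any mock library.

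Of the telomere list, which includes POT1B, 0 of 13 genes were called, whether by edgeR, by limma-voom or by DESeq2, and 1 had an unadjusted p under 0.05. Over all genes tested 3.7% rose and 3.03% fell, so that 0 of 13 lies near the overall share. TRFL10, which rose strongly, was not on this list. The median of the list was -0.01, with POT1A at 0.03 (SE 0.17), the telomerase gene TERT at 0.28 (SE 0.36) and STN1 at -0.01 (SE 0.17). For POT1B itself the change was 0.34 (SE 0.56, adjusted p = 0.834).

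**Figure D3:**
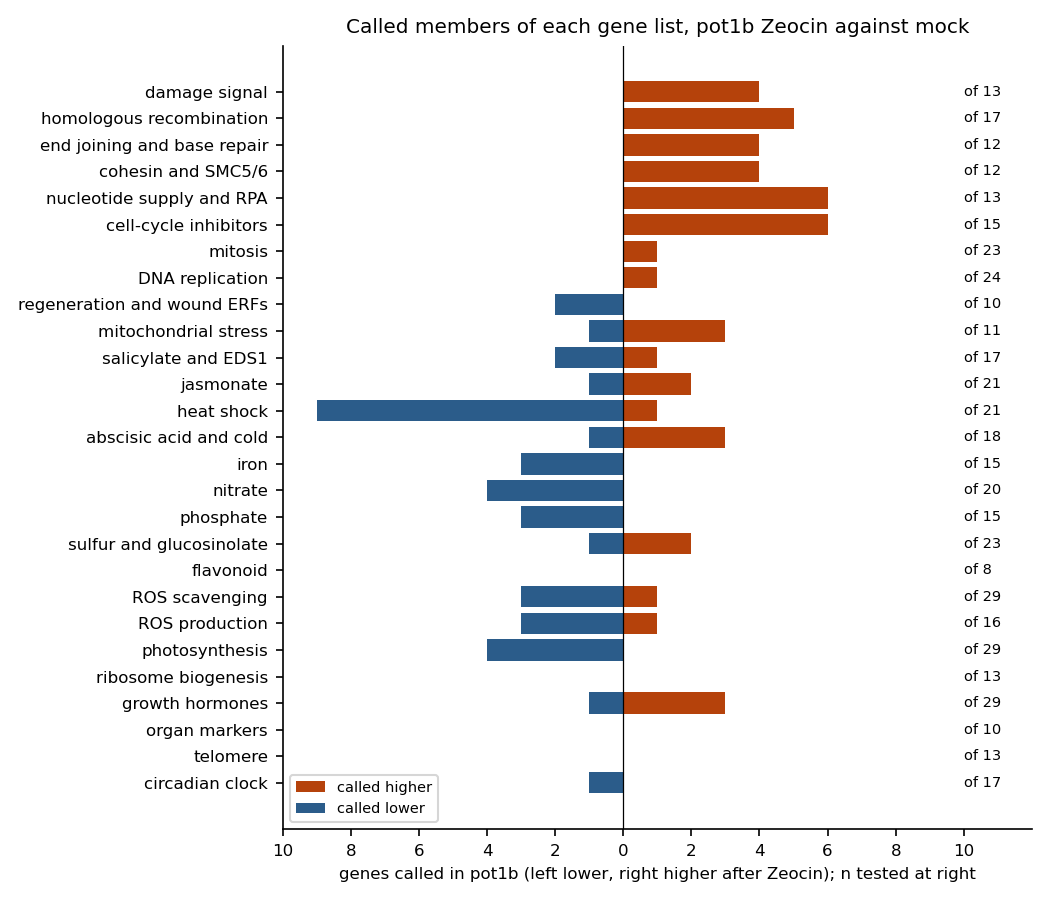
Bars count the members of each gene list called in pot1b, to the right for higher and to the left for lower after Zeocin, with the number tested at the right edge. The 6 lists from damage signal to cell-cycle inhibitors each hold 4 to 6 members to the right and none to the left, while heat shock has the longest bar to the left, with 9 of 21.

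Falls were smaller and began with chaperones. The heat shock list holds chaperones, which keep other proteins folded, and also heat shock factors and related genes. It had 9 of 21 genes lower and 1 higher (median -0.31), and 4 lower without both replicate 3 libraries. Over all genes tested 3.03% fell and 3.7% rose, so that the 1 rise lies near the overall share. HSP70-2 (AT5G02490) read 23.9, 20.5 and 22.5 CPM in mock and 11.2, 9.89 and 9.54 CPM after Zeocin (-1.13, SE 0.12, adjusted p = 2.8e-07), and HSP90.1 (AT5G52640) read 25.6, 22.8 and 21.2 against 12.3, 10.2 and 10.3 CPM (-1.08, SE 0.17). Their mock libraries were all higher than their treated ones. In WT mock libraries HSP70-2 stood at 6.54, 6.74 and 8.60 CPM and HSP90.1 at 13.0, 14.3 and 11.2 CPM, so that pot1b started above WT and ended at 9.54 to 12.3 CPM.
The constitutive HSP70-1 and HSP90.2 fell by 0.31 each on the log2 scale, and both calls were lost without both replicate 3 libraries (adjusted p = 0.0551 and 0.06). The heat shock factor gene HSFB2A was the member that rose (0.47, lost without those libraries at an adjusted p of 0.0912), and HSFA1A (-0.11) and DREB2A (-0.10) were not called. The heat shock element GAANNTTC was present in 11.6% of tested promoters, 11.4% of those of genes called lower and 15.9% of those of genes called higher.

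Some genes for chaperones of the endoplasmic reticulum (ER), where secreted proteins fold, were called lower. This list was put together after the fall of some members was seen, so that its count of 9 lower and 0 higher of 27 tested (median -0.25), or 8 lower without both replicate 3 libraries, supports nothing about ER genes as a group. CNX1 (AT5G61790), the calnexin that holds glycoproteins, read 52.3, 50.6 and 47.3 CPM in mock and 28.8, 27.7 and 22.2 CPM after Zeocin (-0.93, SE 0.10, adjusted p = 2.5e-07). BIP2 (AT5G42020), the HSP70 of the ER, read 60.9, 55.7 and 59.1 against 35.2, 34.8 and 29.3 CPM (-0.82, SE 0.09). PDIL1-2 (AT1G77510), a protein disulfide isomerase, read 15.3, 14.8 and 16.3 against 9.28, 9.89 and 9.62 CPM (-0.69, SE 0.11).
All treated libraries of these 3 genes lay below all mock libraries, and WT mock libraries lay between, at 40.5 to 40.9 CPM for CNX1, 45.8 to 48.1 for BIP2 and 11.7 to 12 for PDIL1-2. UTR1 (AT2G02810), which carries UDP-sugars into the ER, was not on the list and read 6.5, 7.34 and 6.29 CPM in mock and 2.84, 3.15 and 3.01 CPM after Zeocin (-1.16, SE 0.16). PDIL2-2 (-0.89), P58IPK (-0.88), SDF2 (-0.63), the calreticulin gene CRT1b (-0.46) and PDIL1-1 (-0.39) fell too, of which P58IPK overlaps another gene. The stress-induced BIP3 fell from 2.02, 1.87 and 2.31 to 0.831, 0.350 and 0.150 CPM (-2.16, SE 0.42, adjusted p = 0.0015), a call lost without both replicate 3 libraries (adjusted p = 0.0532).
BIP1 (-0.14), SHD, the HSP90 of the ER (-0.27), and the transcription factor genes that switch on ER chaperones, BZIP60 (-0.08), BZIP28 (-0.06) and BZIP17 (-0.27), were not called.

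The ER stress element, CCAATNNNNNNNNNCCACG on either strand, was searched after these falls were seen. It lay in 0.496% of tested promoters and in 1.92% of those of genes called lower, which is 11 of 572 (exact 95% binomial interval 0.964 to 3.41). The matches include PDIL1-2, PDIL1-1, CNX1 and P58IPK, of which those of PDIL1-1 and CNX1 lie after the start, and BIP2 had none in this window. PDIL1-2 is printed because its match lies before the start, at -64 to -46, marked in capitals and overlapping a G-box (CACGTG), with the build as above and the plus strand.
PDIL1-2 (chr1:29126528-29126647): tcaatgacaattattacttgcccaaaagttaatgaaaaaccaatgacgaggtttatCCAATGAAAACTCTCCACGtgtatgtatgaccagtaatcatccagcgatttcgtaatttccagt

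**Figure D4:**
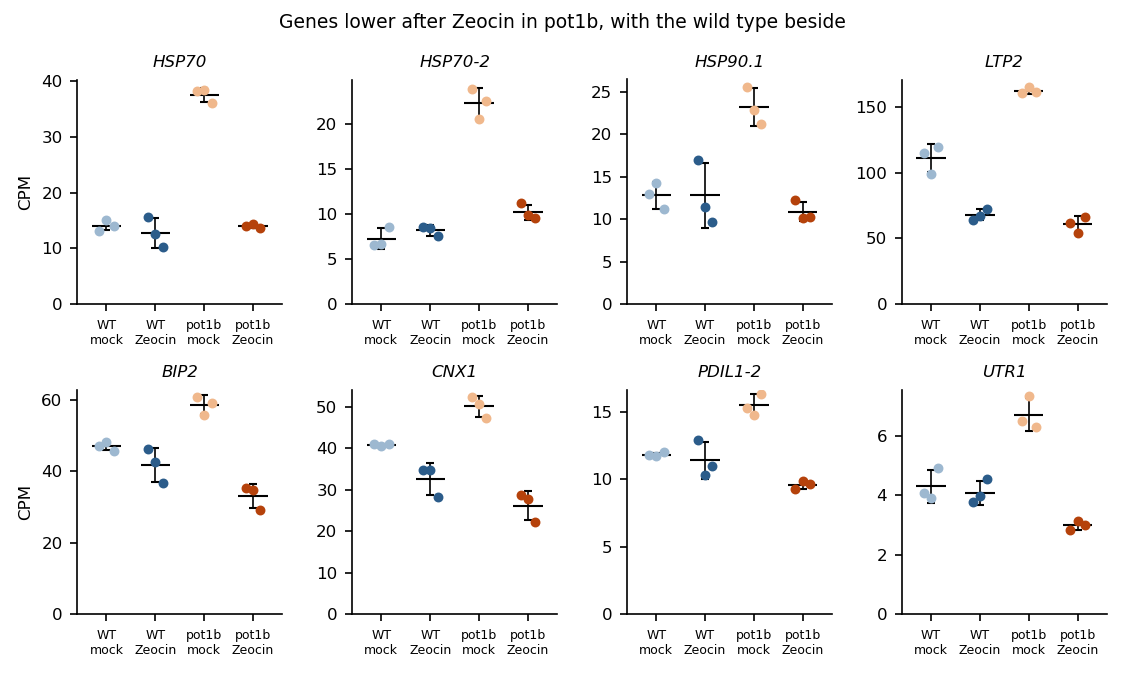
CPM of 8 genes lower after Zeocin in pot1b is shown in all 4 groups, with points for the 3 libraries, a line at the mean and bars of 1 SD. In each panel the pot1b mock points are the highest of the 4 groups, as for HSP70-2 at 20.5 to 23.9 CPM, and the pot1b Zeocin points lie below them.

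Single genes for lipids and the cell wall were among those called lower. The lipid transfer protein gene LTP2 (AT2G38530) read 160, 165 and 161 CPM in mock and 62.1, 54.0 and 66.1 CPM after Zeocin (-1.41, SE 0.09, adjusted p = 2.4e-11). KCS12 (AT2G28630), for the elongation of very long fatty acids, read 105, 105 and 116 against 65.1, 72.1 and 65.8 CPM (-0.68, SE 0.07). Both were lower in all treated libraries. Of 16 KCS genes tested 5 fell, or 2 without both replicate 3 libraries, and 1, KCS17, rose, with KCS3 at -0.66 and the wax gene KCS6 at -0.38, whose call was lost without both replicate 3 libraries (adjusted p = 0.0911).
CYP86A2, which makes cutin monomers and overlaps another gene, fell by 0.48 on the log2 scale, and the ABC transporter gene ABCG15 by 0.91. AT2G44290, annotated in the lipid transfer superfamily, fell by 1.60 (SE 0.24), and the expansin genes EXPA4 and EXPA10, which loosen cell walls, by 0.85 and 0.80. Of 13 EXPA genes tested these 2 fell and 0 rose. Of 30 ABCG genes 5 fell and 2 rose, or 3 and 1 without both replicate 3 libraries. Over all genes tested 3.03% fell and 3.7% rose.

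Other genes among the largest falls were of mixed kinds. The uncharacterized AT5G44575 (-1.29), the berberine-type AT1G30760 (-1.28), the defensin-like PDF1.4 (-1.08), the alpha/beta-hydrolase AT5G47330 (-1.10) and the EF-hand gene AT3G47480 (-1.06) fell in all treated libraries. AIG1 (AT1G33960), known from its rise in plants with the bacterial effector avrRpt2, read 7.93, 6.87 and 6.36 CPM in mock and 2.77, 3.24 and 3.76 CPM after Zeocin (-1.13, SE 0.21). By abundance the largest losses were of RBCS1A, RBCS3B and RCA, for carbon fixation, the cell wall gene BGAL4, and PRX71 (AT5G64120), a peroxidase of the cell wall that read 521, 496 and 497 against 295, 292 and 267 CPM (-0.83, SE 0.09).

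Photosynthesis had 4 of 29 genes lower and 0 higher (median -0.10), and 0 without both replicate 3 libraries. RBCS1A (AT1G67090), the main small subunit gene of Rubisco, read 2390, 3050 and 2890 CPM in mock and 2150, 2180 and 2240 CPM after Zeocin (-0.35, SE 0.09, adjusted p = 0.0201). Its groups did not overlap, but mock replicate 1 lay near the treated libraries. RBCS3B (-0.30), RCA (-0.33) and GAPB (-0.32) were the other calls, and light-harvesting genes such as LHCB1.1 (-0.07) were not called. The list summed to 23830, 25430 and 24230 CPM in mock and 22450, 22850 and 21880 CPM after Zeocin (exact two-sided permutation test, p = 0.1, the smallest possible). Both the sums and the test carry the TMM factors, and sums by library total were not tested. In whole seedlings fewer green cells and less RNA per cell cannot be told apart. Markers of organs and cell types, from the root endodermis to the shoot meristem, had 0 of 10 called by edgeR, DESeq2 or limma-voom and 2 at an unadjusted p under 0.05 (median -0.12), with the root gene PYK10 at -0.05, STM of the shoot meristem at -0.41 and the root hair gene COBL9 at -0.90 (adjusted p = 0.262). With 3.7% of all genes tested called higher and 3.03% lower, 0 of 10 lies near the overall share. The part of organs and cell types in the results was not tested.

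Lists for nitrate, phosphate and iron held falls, where 3.03% of all genes tested fell. They held no rise, which in 15 to 20 genes lies near the 3.7% of all genes that rose. Nitrate genes had 4 of 20 lower (median -0.11), led by the glutamine synthetase gene GLN1;1 (AT5G37600), which read 103, 106 and 111 CPM in mock and 69.4, 56.7 and 68.8 CPM after Zeocin (-0.71, SE 0.08, adjusted p = 1.2e-06). The transport genes NRT1.8 (-0.46, overlapping another gene), NRT3.1 (-0.40) and NRT1.2 (-0.34) fell by less, and NRT2.1 (-0.10) and the nitrate reductase gene NIA1 (0.13) were not called. Of 15 phosphate genes 3 fell, the transporter genes PHT1;4 (-0.49) and PHO1 (-0.45) and the ribonuclease gene RNS1 (-0.43), and 0 without both replicate 3 libraries. Of 15 iron genes 3 fell, the uptake transporter gene IRT1 (-0.92), OPT3, which loads iron into the phloem (-0.59), and the proton pump gene AHA2 (-0.46), while the ferric reductase gene FRO2 (0.16) and FRU, the main regulator (0.35), were not called.
Sulfur and glucosinolate genes had 2 higher, BCAT4 (0.42) and MYB51 (0.28), and 1 lower, MAM3 (-0.59), of 23, of which MYB51 and MAM3 lost their call without both replicate 3 libraries (adjusted p = 0.11 and 0.125), as did NRT1.2 (0.0514).

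Lists for defence hormones held calls in both directions, where 3.7% of all genes tested rose and 3.03% fell. Of 17 salicylate genes 1 rose and 2 fell (median -0.05). SAG101, which works with EDS1 in immunity, read 25.2, 28.6 and 24.4 CPM in mock and 51.0, 52.0 and 44.3 CPM after Zeocin (0.91, SE 0.11), whereas PBS3 (AT5G13320), for salicylate synthesis, read 3.35, 2.81 and 2.75 against 0.554, 0.788 and 0.301 CPM (-2.46, SE 0.30, adjusted p = 4.1e-06). ICS1, for an earlier step, fell by 0.59 on the log2 scale, and EDS1 (0.13), NPR1 (0.09) and PAD4 (-0.12) were not called. The jasmonate list had AOC1 (1.12) and AOC2 (0.39) higher and JAR1, which activates the hormone, lower (-0.44) of 21, with LOX2 (0.15) and MYC2 (0.12) not called.

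Abscisic acid and cold genes had 3 of 18 higher and 1 lower (median -0.08), where 3.7% of all genes tested rose and 3.03% fell. RD29A rose by 0.56 (SE 0.11), COR15B by 0.72 (SE 0.13, overlapping another gene) and KIN1 by 0.50 (SE 0.14), while RD22 fell by 0.75 on the log2 scale. Growth hormone genes had 3 of 29 higher and 1 lower (median 0.02). In both lists 1 lower call lies near the overall share. The auxin repressor genes IAA5, which overlaps another gene, and IAA29 rose by 2.76 (SE 0.34) and 1.90 (SE 0.23) and the small auxin-up gene SAUR22 by 1.25 (SE 0.35), and BR6OX2, for brassinosteroid synthesis, fell by 0.50. The calls of KIN1 and SAUR22 were lost without both replicate 3 libraries (adjusted p = 0.0777 and 0.391).

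Genes for stress of mitochondria and for reactive oxygen species (ROS) were called in both directions, where 3.7% of all genes tested rose and 3.03% fell. Of 11 mitochondrial stress genes 3 rose and 1 fell, with AT2G21640, annotated as a marker of oxidative stress, at 2.19 (SE 0.35), OM66, of the outer membrane, at 0.58 and the carrier gene DIC1 at 0.51. The dehydrogenase gene NDA1 fell by 0.53 on the log2 scale, and AOX1A, the alternative oxidase, was not called (0.10, SE 0.09). Of 29 ROS scavenging genes 1 rose and 3 fell, or 1 without both replicate 3 libraries. The riser was the monodehydroascorbate reductase gene MDAR2 (0.36), and the others were the ascorbate synthesis gene VTC2 (-0.62), the catalase gene CAT2 (-0.46, overlapping another gene) and the superoxide dismutase gene CSD2 (-0.42). Without both replicate 3 libraries the calls of OM66 (adjusted p = 0.0877), NDA1 (0.101), VTC2 (0.0549) and CSD2 (0.0982) were lost.
Among 16 genes for ROS production PER4 rose (0.69), and PRX71 (-0.83), AT5G39580 (-0.68) and GOX1 (-0.27, adjusted p = 0.055 without both replicate 3 libraries) fell, while the oxidase genes RBOHD (-0.06) and RBOHF (0.05) were not called.

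Of the rest, regeneration and wound genes had 2 of 10 lower, AT5G61890 (-0.62) and WIND1 (-0.25), with ERF115 at 0.05, and both calls were lost without both replicate 3 libraries (adjusted p = 0.0702 and 0.158). The clock list had LNK1 (-0.59) lower and 0 higher of 17. Ribosome biogenesis (0 of 13 tested, 0 at an unadjusted p under 0.05) and flavonoid genes (0 of 8, with 1 higher and 2 lower at an unadjusted p under 0.05) held no call by edgeR, DESeq2 or limma-voom. For lists of this size that lies near the overall share of 3.7% higher and 3.03% lower. At the edge of the threshold, GOX1 and AIF1 lay just inside (adjusted p = 0.0496 each) and AT5G16010 and ABIL3 just outside (0.0502 and 0.0503).

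Gene families read from symbols add to this. Of 79 families with at least 12 tested members, 18 had no call and 16 had at least 20% called. The share over all genes tested was 3.7% higher and 3.03% lower, so that no call in a family of 12 lies near it. Beta-glucosidase genes, which release stored defence compounds and hormones, had 7 of 25 higher and 1 lower (median 0.20), or 4 and 1 without both replicate 3 libraries. BGLU21 (AT1G66270) read 55.8, 59.6 and 53.6 CPM in mock and 75.2, 85.9 and 70 CPM after Zeocin (0.45, SE 0.08), with BGLU18 at 0.60 and BGLU22 at 0.38, and BGLU11 was the member that fell (-0.78).
Aquaporin genes of the PIP family had 4 of 18 lower and 0 higher, as PIP1A at 145, 130 and 141 against 98.9, 88.1 and 95.4 CPM (-0.56, SE 0.09). Aldehyde dehydrogenase genes had 4 of 14 lower and 0 higher, with ALDH3H1 at -0.44 and ALDH2B4 at -0.28, and LBD factor genes had 3 of 13 lower, with LBD16, which acts in lateral root formation, at -0.90. Of all genes tested 3.03% were called lower. Without both replicate 3 libraries 2 PIP genes, 0 aldehyde dehydrogenase genes and 0 LBD genes were called lower, with an adjusted p of 0.143 for ALDH3H1, 0.121 for ALDH2B4 and 0.132 for LBD16. In larger families calls ran in both directions. Cytochrome P450 genes had 10 higher and 18 lower of 131, or 8 and 5 without both replicate 3 libraries, WRKY factor genes 4 higher, among them WRKY25 (1.18) and WRKY50 (3.12), and 2 lower of 48, and NAC factor genes 4 higher, among them NAC053 (1.54), and 1 lower of 41, or 4 and 0 without those libraries.

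The interaction, the log2 response of pot1b minus the log2 response of WT, tested where the 2 genotypes responded unequally. It was called for 144 of 19394 genes (0.742%), 71 with a higher and 73 with a lower value in pot1b, and 93 of the 144 were also called in pot1b. Without both replicate 3 libraries 64 were called, and leaving out 1 library at a time gave 55 to 416, the highest without WT Zeocin replicate 1. The interaction and the response of pot1b rest on the same 6 pot1b libraries and are not independent. BRCA1 (0.70, adjusted p = 0.274), XRI1 (0.58, adjusted p = 0.0933), PARP2 (0.07), SMR7 (0.99, adjusted p = 0.741) and CYCB1;1 (0.41) were not called in the interaction. Of the 37 genes named here that were, 21 were still called without both replicate 3 libraries and 16 were not.

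Of the damage and repair lists, RNR1 and GMI1 differed between genotypes, in opposite directions. RNR1 read 12.1, 12.1 and 12 CPM in WT mock and 47.4, 46.4 and 48.4 CPM in WT Zeocin libraries, so that the treated level was higher in every pot1b library (interaction 0.62, SE 0.10, adjusted p = 0.0044). GMI1 (AT5G24280) read 12.6, 13.1 and 12.2 CPM in pot1b mock and 69.6, 72.9 and 71.7 CPM in pot1b Zeocin libraries, against 5.15, 6.00 and 5.27 and then 64.3, 60.2 and 60.5 CPM in WT (-1.02, SE 0.11, adjusted p = 8.3e-05). Its mock level was the higher one in all pot1b libraries.

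Genes that rose more in pot1b included FAMT, a carboxyl methyltransferase that acts on farnesoic acid. It read 3.89, 4.45 and 5.57 CPM in pot1b mock and 14.6, 15.1 and 17.3 CPM in pot1b Zeocin libraries, against 3.72, 4.53 and 3.52 and then 1.92, 3.43 and 3.32 CPM in WT (interaction 2.16, SE 0.25, adjusted p = 0.00012). Mock levels overlapped between genotypes and the treated pot1b libraries stood above all others. CYP96A5 (AT2G21910), a cytochrome P450, rose from 2.91, 2.81 and 2.39 to 8.80, 8.93 and 8.72 CPM in pot1b (1.7, SE 0.14), where WT held 7.33 to 7.79 CPM in mock and 9.22 to 11.0 CPM after Zeocin (interaction 1.27, SE 0.18). Here the pot1b mock libraries were the ones apart, below WT.
IAA5 (2.46) and IAA29 (1.32, adjusted p = 0.162 without both replicate 3 libraries) had pot1b mock levels below WT mock too, as had DIN11, a 2-oxoglutarate-dependent oxygenase induced in the dark, at 119, 106 and 120 against 197, 191 and 192 CPM (interaction 0.95, SE 0.13). AT1G14120 (1.48), AT5G35940 (0.94) and AT2G22122 (0.85) also had higher values in pot1b, and AT5G19890 (0.89), a peroxidase gene, fell by less in pot1b (-0.76) than in WT (-1.65).

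Genes with a lower value in pot1b were led by PBS3 (-3.33), AIG1 (-1.76), AT2G44290 (-1.58), AT3G47480 (-1.49), HSP70 and HSP70-2 (-1.29 each). Of these, AIG1 (adjusted p = 0.0537), AT2G44290 (0.135) and AT3G47480 (0.121) lost the call without both replicate 3 libraries. Their pot1b mock libraries stood above the WT mock libraries, as AIG1 at 6.36 to 7.93 CPM against 0.753, 1.37 and 1.14 CPM. LTP2 fell in both genotypes, by 1.41 in pot1b and by 0.71 in WT on the log2 scale (interaction -0.70, adjusted p = 0.0046), and treated libraries reached 54.0 to 66.1 and 64.3 to 72.5 CPM. CNX1 (-0.61), BIP2 (-0.65), PDIL1-2 (-0.63) and UTR1 (-1.08) of the ER genes differed as well, with adjusted p between 0.0096 and 0.0445. Without both replicate 3 libraries none of these 4 was called in the interaction (adjusted p = 0.109 for CNX1, 0.0893 for BIP2, 0.172 for PDIL1-2 and 0.067 for UTR1). OM66 rose in both, less in pot1b (0.58) than in WT (1.75, interaction -1.18, adjusted p = 0.0064), from a pot1b mock level of 6.5 to 8.32 CPM against 2.21 to 2.99 CPM in WT.
EXO70H1, of the exocyst that guides secretion (-1.17), the ethylene synthesis gene ACS7 (-1.19) and CBP60G, a regulator of salicylate synthesis (-1.05), also had lower values. CBP60G (AT5G26920) read 27.1, 28.2 and 25.7 CPM in pot1b mock and 24.7, 26.4 and 22.5 CPM in pot1b Zeocin libraries, which overlapped, whereas WT went from 12.3, 8.95 and 10.9 to 20.3, 21.4 and 19.9 CPM.

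**Figure D5:**
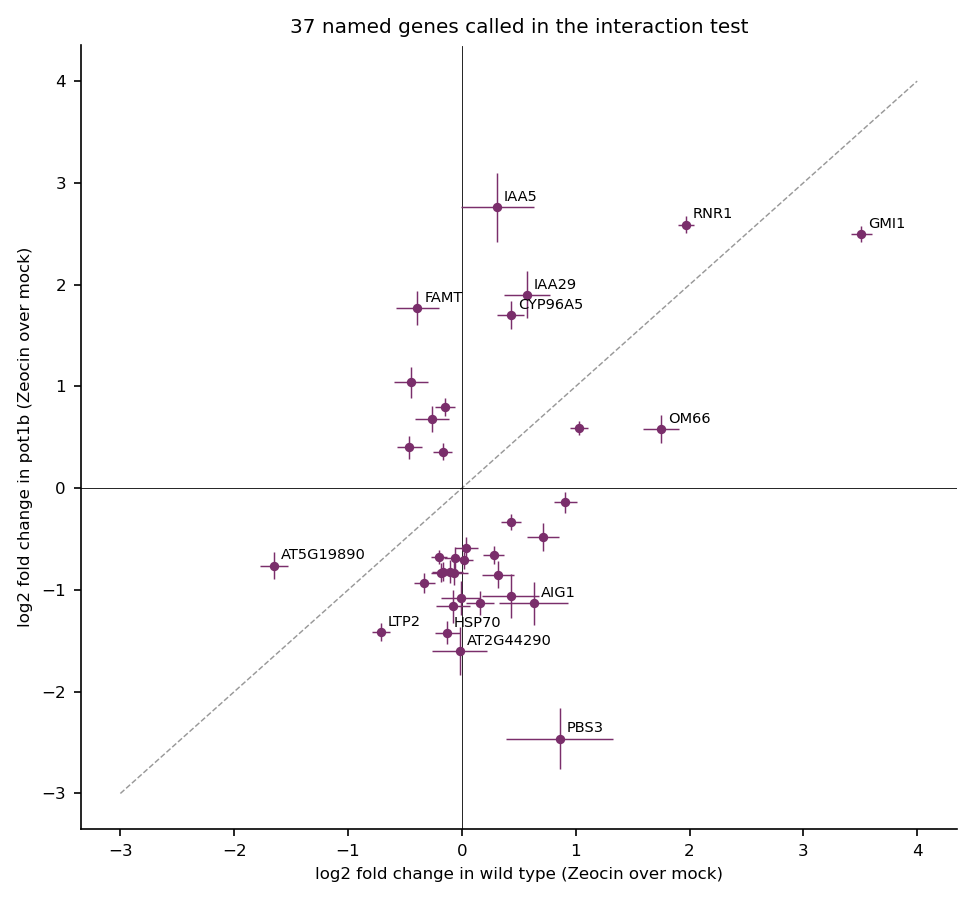
Each point is 1 of 37 named genes called in the interaction, with its log2 fold change after Zeocin in WT on the x axis and in pot1b on the y axis, and bars of 1 SE. Points above the dashed line of equal response had a higher value in pot1b, such as FAMT, and points below it a lower one, such as PBS3.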

How the data were processed

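Per the submitters' processing notes, the authors named Trim Galore, HISAT2, featureCounts, limma and the build TAIR10. Their versions, and whether counting used strand, are not given in the sources used here. The deposited values were raw read counts per gene, in 34262 features per library. Genes that overlap another listed gene are therefore uncertain, 6956 of the tested and 374 of the 1304 called. Symbols, gene classes and promoters came from RefSeq's TAIR10.1, matched by locus.

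Counts of all 12 libraries were fitted in edgeR 4.0.16 (R 4.3.3) with 1 model of 4 groups: filterByExpr with a minimum count of 10 (19596 features kept, chloroplast and mitochondrial genes included), TMM scaling and the robust quasi-likelihood F test with 8 residual degrees of freedom. Adjusted p is Benjamini-Hochberg over the 19596. Replicates varied by 11% (common dispersion 0.0121). CPM used the total of the kept features of each library, organelle genes included, multiplied by its TMM factor. A floor of 3 counts in a pot1b library is 0.148 to 0.27 CPM. SE is of the log2 fold change and was calculated back from that change and its F value.

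The members, the 27 gene lists (551 genes, 464 tested) and the tests were chosen with earlier results of these data known. Genes were named as the 12 largest non-overlapping rises and falls with a mean of at least 5 CPM and groups apart, the 5 largest gains and losses in CPM, called and anchoring list members, the 8 largest interaction changes a side, family members with the smallest p, and 2 genes a side nearest the threshold. A gene that this rule names is not reported here. Alternatives were DESeq2 1.42.0, limma-voom 3.58.1, DESeq2 size factors, no filter, nuclear genes only, pot1b libraries only, a replicate block, a shorter promoter window and left-out libraries.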

Additional observations from a re-analysis of the deposited data

Results flagged for a closer look

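The genes here responded to Zeocin differently in pot1b and in WT by edgeR's test of the interaction (adjusted p under 0.05), given as the log2 change in pot1b minus that in WT. The interaction shares the pot1b libraries with the response described above. Without both pot1b replicate 3 libraries 16 of the 37 calls were lost, those of IAA29, UGT85A1, HSP90.1, UTR1, BIP2, PDIL1-2, CNX1, AIG1, AT3G47480, CRK22, CRK21, AT2G44290, PRX71, OPT3, KCS12 and ABCC3.

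Among genes with a higher value in pot1b, the differences were 2.46 for IAA5, 2.16 for FAMT, 1.48 for AT1G14120, 1.32 for IAA29, 1.27 for CYP96A5, 0.95 for DIN11, 0.94 for AT5G35940, 0.89 for AT5G19890, 0.85 for AT2G22122, 0.62 for RNR1 and 0.53 for the glycosyltransferase gene UGT85A1.

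Chaperone and ER genes with a lower value in pot1b were HSP70 and HSP70-2 (-1.29 each), HSP90.1 (-1.08), the HSP70 family gene AT3G09440 (-0.94, overlapping another gene), UTR1 (-1.08), BIP2 (-0.65), PDIL1-2 (-0.63) and CNX1 (-0.61). Defence and signalling genes were PBS3 (-3.33), AIG1 (-1.76), AT3G47480 (-1.49), ACS7 (-1.19), OM66 (-1.18), EXO70H1 (-1.17), CBP60G (-1.05) and the receptor-like kinase genes CRK22 (-0.77), CRK13 (-0.76) and CRK21 (-0.72). CRK13 fell by 0.33 on the log2 scale in pot1b, from 49.9 to 52.6 CPM in mock to 39.8 to 42.0 CPM, a call lost without those libraries (adjusted p = 0.0978), and had a log2 change of 0.43 in WT, from 16.3 to 19.2 CPM to 21.1 to 26.3 CPM.

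The rest were AT2G44290 (-1.58), GMI1 (-1.02), GLN1;1 (-0.74), LTP2 (-0.70), PRX71 (-0.65), OPT3 (-0.63), KCS12 (-0.49) and the transporter gene ABCC3 (-0.45), which rose in both genotypes. GLN1;1, which assimilates ammonium, held 73.5 to 83.0 CPM in the WT mock and 80.3 to 80.7 CPM in the WT Zeocin libraries, while in pot1b it fell from above that level to below it.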

How the results depend on the processing

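Genes called in pot1b numbered 1304 (717 higher, 587 lower), 738 (446 and 292) without both pot1b replicate 3 libraries, 1821 with 885 lower when pot1b libraries were fitted alone, 1043 by DESeq2 and 1169 by limma-voom. Leaving out 1 library at a time gave 913 to 2013 genes, 520 to 1042 higher and 386 to 971 lower, and 305 to 380 at least 2-fold. The highest counts came without WT Zeocin replicate 1 (2013), and the fewest lower calls without pot1b Zeocin replicate 1 (386). WT Zeocin replicate 1 had a nuclear share of 45.15%, against 40.5% and 41.21% in WT Zeocin replicates 2 and 3. Its photosynthesis list summed to 17890 CPM, against 21380 and 21230 CPM, values that carry the TMM factor of each library and are not shares of its total counts. Whether this bears on the counts was not tested.

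The interaction was called for 144 genes, for 64 (34 higher, 30 lower) without both replicate 3 libraries, 87 (41 and 46) by limma-voom and 168 by DESeq2, which called 21 at least 2-fold. Leaving out 1 library gave 55 to 416 genes, 21 to 233 higher, 32 to 183 lower and 18 to 59 at least 2-fold. It gave 60, 83 and 76 without WT mock replicates 1, 2 and 3, 416 without WT Zeocin replicate 1, 83, 57 and 71 without pot1b mock replicates 1, 2 and 3, and 55 and 65 without pot1b Zeocin replicates 1 and 2. The cause was not tested.

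Deviations of same-numbered mock and Zeocin libraries correlated with r of 0.10, 0.05 and 0.31 in pot1b and 0.22, -0.02 and 0.36 in WT. Differently numbered libraries ranged from -0.30 to 0.24 in pot1b and from -0.34 to 0.14 in WT. In each genotype the highest value was that of replicate 3 with replicate 3 (0.31 and 0.36). Not every same-numbered pair passed 0.1, and pot1b mock 1 correlated best with Zeocin 2 (0.24). The labels do not say whether same-numbered libraries belong together, and the main fit did not pair them. A replicate block gave 1678 genes in pot1b (878 higher, 800 lower) and 367 in the interaction (208 and 159).

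No result reversed under the alternatives run. Of 181 named genes called in pot1b, 129 kept their call under every alternative run and 52 lost it under at least 1, among them RBCS3B (adjusted p up to 0.193), ICS1 (0.146), NDA1 (0.172), HSP17.6II (0.169) and ACS7 (0.355). Leaving out both replicate 3 libraries ended 46 of these calls. Of 37 called in the interaction 18 kept it, and CNX1, PDIL1-2, HSP90.1, OPT3 and IAA29 were among the 19 that lost it (adjusted p up to 0.109 to 0.172). In the 250 bases before the start alone, the SOG1 palindrome lay in 8.90% of tested genes and 14% of those called higher. Genes near 1 CPM rest on few counts, as IAA5, SAUR22 and WEE1.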
